A study of Homo sapiens with 12 samples.

Results

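The genes described here encode 7 proteins of the RAS, RAF, MEK and ERK signaling cascade, namely the small GTPases HRAS and NRAS, the kinases ARAF and BRAF, the MEK kinases MAP2K1 and MAP2K2, and the ERK kinase MAPK3. They were chosen by gene symbol and are 7 of the 15798 genes of the table. All 7 passed the filter on low values, 10 or more counts in 3 or more input libraries, and were therefore among the 10663 genes tested. Other genes of the cascade were not analysed here.

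The cells were HCT116, a human colorectal cancer cell line grown as a culture, and all groups came from this line. Treatment lasted 24 h, with 100 nM of trametinib, which binds the MEK kinases and stops them from activating ERK, or with the solvent DMSO. Before lysis all dishes received cycloheximide, which holds ribosomes on the mRNA. From each treatment 3 replicates were sequenced in 2 assays: input, which is mRNA cut at random, and ribosome protected fragments or footprints, the mRNA stretches that a ribosome shields from RNase I. This gives 12 libraries in 4 groups of 3, which the study describes as biological replicates.

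In this cascade, active RAS on the plasma membrane recruits RAF kinases, RAF phosphorylates MEK, and MEK phosphorylates ERK, which enters the nucleus and changes transcription. The genes of one tier are paralogs, which arose by duplication and encode similar proteins with partly shared functions. The pathway drives proliferation of intestinal epithelium and is a frequent site of activating mutations in colorectal cancer. Trametinib acts on the MEK proteins themselves, so the mRNAs of the 7 genes are not its target.

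Because similar paralogs can share sequence, the stretches of 60 coding nucleotides that are most alike within one exon are given for the RAF and the MEK genes, to show how far short reads can tell the paralogs apart. They are written 5′ to 3′ on the coding strand from GRCh38 with the exons of GENCODE v44, the same genome as the release used by the authors but a later annotation. Capitals mark the bases at which the paralogs differ. For the RAF genes, with 13 differing bases, the stretch lies in exon 5 of ARAF at chrX:47565030-47565089 (plus strand) and in exon 6 of BRAF at chr7:140801456-140801515 (minus strand).
ARAF: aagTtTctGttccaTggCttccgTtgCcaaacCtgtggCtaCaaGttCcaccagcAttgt
BRAF: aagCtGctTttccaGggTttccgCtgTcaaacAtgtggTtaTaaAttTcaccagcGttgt
For the MEK genes, with 4 differing bases, it lies in exon 6 of both genes, at chr15:66481790-66481849 (plus strand) in MAP2K1 and at chr19:4101049-4101108 (minus strand) in MAP2K2.
MAP2K1: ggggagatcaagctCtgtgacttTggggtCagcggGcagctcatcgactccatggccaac
MAP2K2: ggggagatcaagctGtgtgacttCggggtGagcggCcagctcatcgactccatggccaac

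Only reads that fell in the reading frame of a single symbol had been counted. The MEK genes shared 9 windows of 30 nucleotides exactly, of 1150 in MAP2K1 and 1171 in MAP2K2, and their longest shared run was 38 nucleotides. HRAS shared 2 of its 538 windows of this length with ERAS, and the other 4 genes shared 0 with any other symbol. A further comparison that allowed up to 2 mismatches found 49 such windows between the MEK genes and 0 between the genes of the other pairs. At 25 nucleotides, the exactly shared windows were 14 for each MEK gene, 8 for HRAS, 5 for MAPK3 and 0 for the other genes. By exact matches, most of each reading frame was thus open to reads of one symbol alone. The comparison with mismatches covered only the pairs of paralogs, and so neither MAPK3 nor other related genes.

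Total counts were 2276693 to 2845568 in input and 10127477 to 19181588 in footprints, so that input was the shallower assay. As a check of the treatment labels, DUSP6, SPRY4, ETV4, ETV5 and PHLDA1, genes that ERK activity induces, were called lower in 5 of 5 cases in input and in footprints (edgeR). PHLDA1 was the least stable of them: its footprint change of -0.90 was not called with library totals or without any 1 of the 3 trametinib footprint libraries, and was -0.45 without DMSO footprint replicate 1. Its input change of -0.90 was not called without trametinib input replicate 2 and was -0.46 without DMSO input replicate 1. Of the epithelial markers, EPCAM, CDH1, KRT8, KRT18, KRT19 and CDX2 were present and VIL1, a protein of the brush border, had at most 2 counts in any library. Of 6 markers of other cells, PTPRC, CD3E, PECAM1 and COL1A2 had at most 3 counts in any library, while VWF and COL1A1 were detected. The summed level of these 6 ranged from 64.8 to 86.6 normalized counts in DMSO input and from 97.8 to 147 in trametinib input. Its part in the changes below was not tested. VWF had a mean of 9.42 in DMSO input and 55.4 in trametinib input, and COL1A1 had 66.9 and 58.0.

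Some replicates differed in a way that tracked base composition. Across 7616 genes, the deviation of a library from the other replicates of its group was compared with GC3, the GC content of the third codon positions. Spearman's rho was 0.632 for DMSO input replicate 3 and -0.545 for DMSO input replicate 2, and it was 0.590 and -0.592 for trametinib footprint replicates 2 and 3. Genes are not independent replicates, so these values describe the libraries only. GC3 was 41.4% in BRAF, 46.0% in NRAS, 63.9% in MAP2K1, 74.6% in ARAF, 81.5% in HRAS, 82.1% in MAPK3 and 83.8% in MAP2K2. In DMSO input, replicate 3 was the highest of the 3 libraries for ARAF, HRAS, MAPK3 and MAP2K2 and the lowest for BRAF, NRAS and MAP2K1. Each change below was therefore also fitted with a correction for GC3 in every library, an alternative chosen after the data had been seen. It fits each library against the mean of both treatments, so it also removes a trend with GC3 that differs between the treatments.

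Values below are normalized counts, which are counts divided by the size factor of the library, as mean ± SD (n = 3 libraries). A change is the log2 ratio of trametinib to DMSO, given with its standard error (SE). A gene was called where the adjusted p-value was under 0.05 over all 10663 genes, by the edgeR quasi-likelihood test for input and footprints and by the DESeq2 likelihood ratio test for ribosome density, which is footprints relative to input. In bulk samples, fewer cells with an mRNA and less mRNA per cell cannot be told apart.

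The first comparison asked whether MEK inhibition altered the abundance of the mRNAs of the cascade. In input, 0 of 7 genes were called by edgeR, against 32.1% of all genes tested, and 1 had an unadjusted p-value under 0.05. Trametinib and DMSO libraries were fully separate for 2 of 7 genes in input, against 46.6% of all genes, and for 3 of 7 in footprints, against 59.6%. The second comparison asked for the footprints of each gene, which depend on both the amount of its mRNA and the ribosomes on each mRNA. In footprints 2 of 7 genes were called, both higher, against 23.9% of all genes called higher and 49.4% called in either direction. These genes were MAPK3, with a 1.57-fold rise, and MAP2K2, with a 1.20-fold rise that most of the other models did not call. Both rises are relative to the other mRNAs. For ribosome density, 0 of 7 genes were called by DESeq2, against 1.73% of all genes, and 0 had an unadjusted p-value under 0.05. The median log2 change of the 7 genes was -0.18 in input, 0.07 in footprints and 0.09 in ribosome density, where the medians of all genes were 0.00, -0.01 and 0.00.

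**Figure D1:**
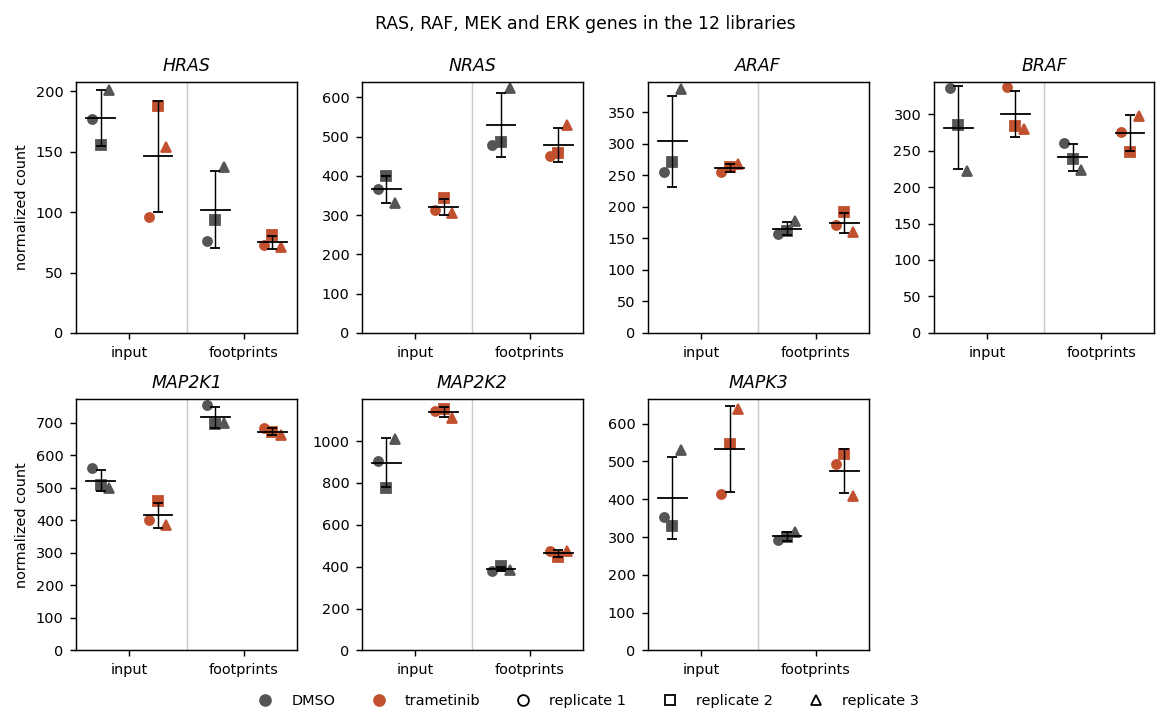
Normalized counts (y axis, linear from 0) of each gene in the 12 libraries, by assay and treatment. Symbols are replicates, horizontal bars are means and error bars are the SD over 3 libraries. MAPK3 footprints were 291 to 314 in DMSO and 409 to 521 in trametinib, without overlap.

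RAS proteins are GTPases that switch the cascade on while bound to GTP. HRAS (chromosome 11, 532242 to 537321, minus strand) was the gene with the fewest counts. Its input was 177, 156 and 201 normalized counts in DMSO replicates 1 to 3 and 96.3, 188 and 154 in trametinib. The groups overlapped, and the lowest value, trametinib replicate 1, rested on 40 reads. The input change of HRAS was -0.28 (SE 0.25, 95% interval -0.81 to 0.26, edgeR adjusted p = 0.422). It was -0.041 without trametinib input replicate 1, -0.50 without trametinib input replicate 2 and -0.45 with the correction for GC3. HRAS footprints were 75.9, 93.1 and 137 in DMSO and 72.8, 81.4 and 71.4 in trametinib. The trametinib libraries lay close together, whereas DMSO replicate 3 was far above the other DMSO libraries. The footprint change of HRAS was -0.44 (SE 0.21, edgeR adjusted p = 0.115) and was not called. It was -0.15 without DMSO footprint replicate 3, and -0.63 and called lower without DMSO footprint replicate 1 (edgeR adjusted p = 0.00517).

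NRAS (chromosome 1, 114704469 to 114716771, minus strand), the other RAS gene measured, had about 5 times the footprints of HRAS on a reading frame of the same length, 567 nucleotides. NRAS input was 367, 400 and 330 in DMSO and 313, 345 and 306 in trametinib, so that the groups overlapped. The input change was -0.18 (SE 0.16, edgeR adjusted p = 0.426). NRAS footprints were 478, 486 and 623 in DMSO and 452, 457 and 529 in trametinib. Replicate 3 was the highest footprint library of both treatments, and the groups overlapped. The footprint change of NRAS was -0.14 (SE 0.13, edgeR adjusted p = 0.395), and without DMSO footprint replicate 3 it was 0.00.

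RAF kinases bind active RAS and phosphorylate MEK. ARAF (chromosome X, 47561205 to 47571908, plus strand) had 255, 270 and 386 normalized input counts in DMSO and 255, 262 and 267 in trametinib. DMSO replicate 3 stood above all other libraries, and the groups overlapped. The input change of ARAF was -0.21 (SE 0.19, edgeR adjusted p = 0.447), and 0.01 without DMSO input replicate 3. Its footprints were 157, 162 and 177 in DMSO and 171, 191 and 160 in trametinib, again with overlap. The footprint change was 0.07 (SE 0.12, edgeR adjusted p = 0.640) and became -0.03 with the correction for GC3.

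BRAF (chromosome 7, 140719327 to 140924929, minus strand), the RAF kinase most often mutated in cancer, had input levels of 336, 285 and 222 in DMSO and of 337, 283 and 280 in trametinib. Here DMSO replicate 3 was the lowest library, the opposite of ARAF, and the groups overlapped. The input change of BRAF was 0.10 (SE 0.19, edgeR adjusted p = 0.726), with -0.04 when DMSO input replicate 3 was left out. BRAF footprints were 260, 238 and 223 in DMSO and 276, 248 and 297 in trametinib. These groups overlapped as well, and the footprint change was 0.18 (SE 0.12, edgeR adjusted p = 0.227). Of the 10 alternatives with all libraries, 1 called BRAF higher, at 0.36 (edgeR adjusted p = 0.0281). It scaled libraries by their totals and raised the median footprint change of all genes by 0.18.

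MEK1 and MEK2, the products of MAP2K1 and MAP2K2, are the kinases to which trametinib binds. MAP2K1 (chromosome 15, 66386837 to 66491656, plus strand) had 561, 508 and 499 normalized input counts in DMSO and 402, 458 and 386 in trametinib. Every trametinib library was below every DMSO library, a separation in this direction that 23.3% of all genes showed. The input change of MAP2K1 was -0.32 (SE 0.16, 95% interval -0.66 to 0.01, edgeR adjusted p = 0.129). MAP2K1 footprints were 754, 697 and 699 in DMSO and 684, 673 and 662 in trametinib. These groups did not overlap either, as was the case with trametinib lower for 30.3% of all genes, but the difference was small, with a change of -0.09 (SE 0.10, edgeR adjusted p = 0.465). When all 12 libraries entered one fit, the input change of -0.34 was called (edgeR adjusted p = 0.0376).

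MAP2K2 (chromosome 19, 4090321 to 4124122, minus strand) is the other gene of this tier. Its input was 906, 776 and 1011 in DMSO and 1146, 1155 and 1111 in trametinib, without overlap, which 23.2% of all genes showed with trametinib higher. The input change was 0.35 (SE 0.15, 95% interval 0.02 to 0.67, edgeR adjusted p = 0.0944). It was called without DMSO input replicate 3, at 0.45 (edgeR adjusted p = 0.0302), and in the fit of all 12 libraries, at 0.34 (edgeR adjusted p = 0.0365). With the correction for GC3 the input change of MAP2K2 was 0.17 (edgeR adjusted p = 0.298).

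MAP2K2 footprints were 380, 401 and 384 in DMSO and 473, 446 and 476 in trametinib. The groups did not overlap, as for 29.3% of all genes with trametinib higher. The footprint change of 0.26 (SE 0.095, 95% interval 0.05 to 0.48, edgeR adjusted p = 0.0475) was called by a narrow margin. Of the 10 alternatives that kept all libraries, 2 called it, library totals and the fit of all 12 libraries, and of the 6 fits that each left out a library 1 did, the one without DMSO footprint replicate 1. With the correction for GC3 it was 0.14 (edgeR adjusted p = 0.290).

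MAPK3 (chromosome 16, 30114105 to 30123506, minus strand) encodes ERK1, the kinase that MEK activates. Its input was 354, 328 and 529 normalized counts in DMSO and 414, 546 and 640 in trametinib. DMSO replicate 3 lay within the trametinib range, so that the groups overlapped. The input change of MAPK3 was 0.41 (SE 0.22, 95% interval -0.06 to 0.88, edgeR adjusted p = 0.172). Without DMSO input replicate 3 it was 0.66 and called (edgeR adjusted p = 0.0231), whereas it was 0.25 without trametinib input replicate 3 (edgeR adjusted p = 0.493), 0.28 without DMSO input replicate 2 and 0.24 with the correction for GC3.

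In footprints MAPK3 showed the clearest change of the 7 genes. It had 291, 300 and 314 normalized counts in DMSO and 492, 521 and 409 in trametinib, so that each trametinib library was above each DMSO library. The normalized footprint level was 302 ± 11.8 in DMSO and 474 ± 57.9 in trametinib, 157% of DMSO. Relative to the other mRNAs, the change was 0.65 (SE 0.12, 95% interval 0.38 to 0.92, edgeR adjusted p = 0.00201). MAPK3 was called in 10 of 10 alternatives with all libraries, with changes of 0.52 to 0.83, and in the 6 of 6 fits that each left out a library, with 0.58 to 0.75. With the correction for GC3 the change was 0.52 (edgeR adjusted p = 0.00264). Among all genes tested, 67.8% had a footprint change smaller in size than that of MAPK3.

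**Figure D2:**
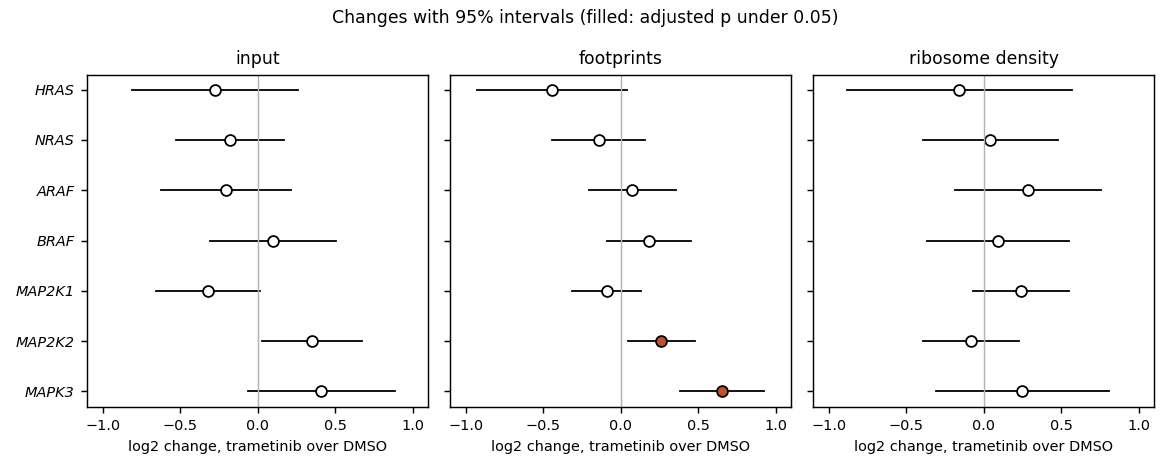
Log2 changes of trametinib over DMSO (x axis) in input, footprints and ribosome density for the 7 genes, with 95% intervals as lines. Filled points mark an adjusted p-value under 0.05 and are those of MAP2K2 and MAPK3 in footprints.

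A last comparison asked whether ribosomes per mRNA changed, beyond mRNA abundance. Footprints over input were taken within pairs of libraries of the same treatment and replicate number, here called dishes. The labels give only the equal number. Over 7669 genes, deviations from the group means in input and footprints had Pearson's r of 0.815, 0.181 and 0.343 in DMSO dishes. In trametinib dishes r was 0.139, 0.0813 and -0.116. Scaling sets the libraries to a common level, which hides any shift shared by all mRNAs, and a ratio is relative to the median of all genes, 1.02 in DMSO. The dishes of the treatments did not overlap for 1 of 7 genes, MAP2K1, against 17.0% of all genes. Its ratio was 1.34, 1.37 and 1.40 in DMSO and 1.70, 1.47 and 1.72 in trametinib, a separation that 7.99% of all genes showed in this direction and 9.04% in the other. The ribosome density change of MAP2K1 was 0.24 (SE 0.16, 95% interval -0.07 to 0.55, DESeq2 adjusted p = 0.840). In a fit with a block for each dish it was 0.24 (DESeq2 adjusted p = 0.885), and 0 members were called higher and 0 lower.

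MAPK3 had ratios of 0.823, 0.914 and 0.594 in DMSO and of 1.19, 0.954 and 0.639 in trametinib. In both treatments dish 3 was the lowest, and the ranges overlapped widely. The ribosome density change of MAPK3 was 0.25 (SE 0.28, 95% interval -0.31 to 0.81, DESeq2 adjusted p = 0.993), and it was 0.01 without DMSO input replicate 3.

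For ARAF the ribosome density change was 0.28 (SE 0.24), and 0.077 without DMSO input replicate 3. It was for BRAF 0.09 (SE 0.23), for NRAS 0.04 (SE 0.22), for MAP2K2 -0.08 (SE 0.16) and for HRAS -0.16 (SE 0.37). Adjusted p-values of the 7 genes ranged from 0.840 to 0.997 (DESeq2). The intervals were wide, from -0.89 to 0.57 for HRAS and from -0.39 to 0.23 for MAP2K2, so that changes of moderate size in either direction lay within them. The median SE of the 7 genes was 0.23 for ribosome density against 0.12 for footprints.

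The genes covered a wide range of footprints per input. In DMSO, the mean of footprints over input was 1.47 ± 0.37 for NRAS and 1.37 ± 0.029 for MAP2K1, and the ratios of the group means, 1.45 and 1.37, lay at percentiles 70.7 and 67.5 of all genes tested. BRAF had 0.871 ± 0.12 and MAPK3 0.777 ± 0.16, with ratios of group means of 0.856 and 0.748 at percentiles 39.7 and 32.5. HRAS had 0.570 ± 0.13, ARAF 0.558 ± 0.087 and MAP2K2 0.439 ± 0.071, with ratios of group means of 0.574, 0.544 and 0.433 at percentiles 21.1, 18.9 and 12.3. In each tier with a pair, one paralog thus carried more footprints per input than the other, NRAS more than HRAS, BRAF more than ARAF and MAP2K1 more than MAP2K2, in 3 of 3 DMSO and 3 of 3 trametinib dishes.

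The paralog with more footprints per input had the lower GC3 in all 3 pairs. Over the 7522 genes with a GC3 value and enough counts, GC3 and footprints over input in DMSO had a Spearman's rho of -0.234. This is a description across genes that share the libraries, and it does not separate base composition from other features of a gene. For the changes under trametinib, rho with GC3 was 0.137 in input, 0.0926 in footprints and -0.0763 in ribosome density.

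**Figure D3:**
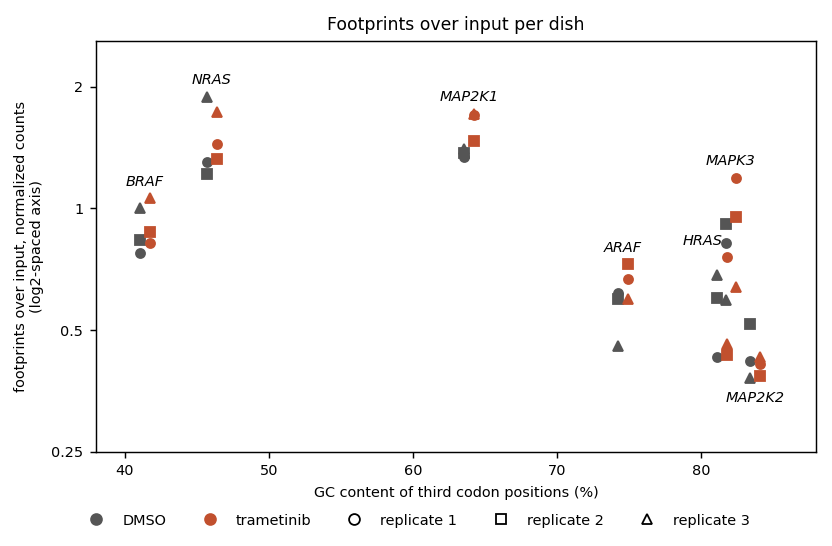
Footprints over input (y axis, log2-spaced) in each dish against the GC content of the third codon positions in percent (x axis). Points of one gene share an x value and are shifted slightly by treatment. NRAS and MAP2K1 lie above 1 in every dish and MAP2K2 lies below 0.52 in every dish.

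A ratio of paralogs within a library needs no scaling between libraries. It was formed from counts per kilobase of reading frame and tested between treatments by an exact two-sided permutation test, with 6 tests in all. The smallest p-value that 3 against 3 libraries allow is 0.1. For MAP2K2 over MAP2K1 in input the ratio was 1.59, 1.50 and 1.99 in DMSO and 2.80, 2.48 and 2.83 in trametinib. No library of the treatments overlapped, and the ratio was 1.61-fold higher in trametinib (exact permutation p = 0.1, adjusted p = 0.3).

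In footprints the order of the MEK genes was reversed, with less MAP2K2 than MAP2K1 in every library. The ratio was 0.495, 0.566 and 0.540 in DMSO and 0.680, 0.651 and 0.707 in trametinib, 1.27-fold higher without overlap (exact permutation p = 0.1, adjusted p = 0.3). With the correction for GC3 these differences were 1.45-fold in input and 1.20-fold in footprints. The footprints per input of MAP2K2 relative to MAP2K1 were 0.312, 0.377 and 0.271 in DMSO dishes and 0.243, 0.263 and 0.250 in trametinib dishes.

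The ratio of NRAS to HRAS overlapped between treatments in both assays. It was 2.07, 2.57 and 1.64 in DMSO input and 3.25, 1.84 and 1.98 in trametinib input (exact permutation p = 0.7, adjusted p = 0.7). In footprints it was 6.30, 5.22 and 4.53 in DMSO and 6.20, 5.62 and 7.41 in trametinib (exact permutation p = 0.3, adjusted p = 0.6). NRAS exceeded HRAS in all 12 libraries. BRAF over ARAF was 1.05, 0.835 and 0.455 in DMSO input and 1.04, 0.853 and 0.829 in trametinib input (exact permutation p = 0.7, adjusted p = 0.7). In footprints it was 1.31, 1.17 and 0.999 in DMSO and 1.28, 1.03 and 1.47 in trametinib (exact permutation p = 0.6, adjusted p = 0.7). The RAF ratio lay on both sides of 1 in both assays.

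**Figure D4:**
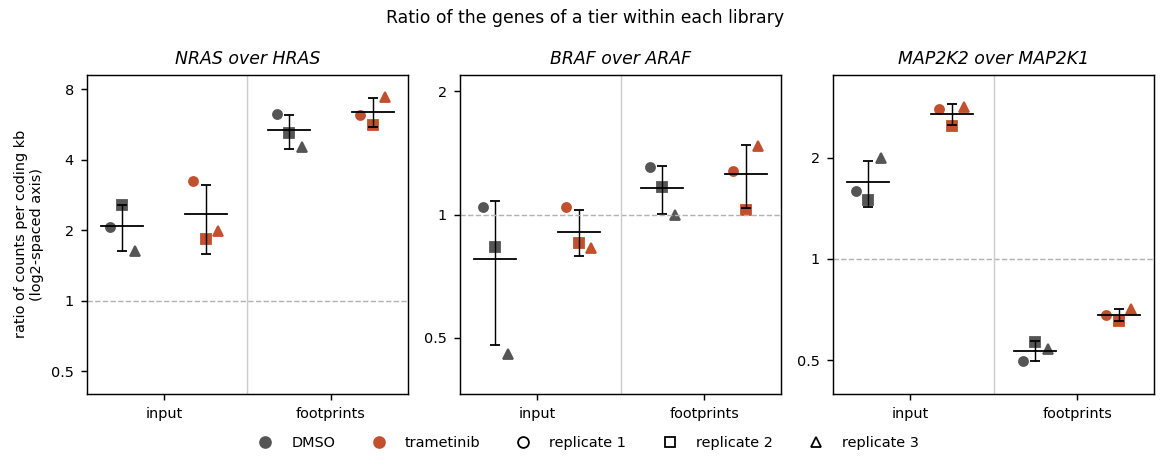
Ratio of counts per kilobase of reading frame (y axis, log2-spaced) for the paralogs of each tier, by assay and treatment. Symbols are libraries, horizontal bars are means and error bars are the SD over 3 libraries. For MAP2K2 over MAP2K1 the treatments do not overlap, and the ratio lies above 1 in input and below 1 in footprints.

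Levels were compared between genes as normalized counts per kilobase of reading frame. In DMSO input the order was MAP2K2 at 748 ± 98.4, NRAS at 645 ± 61.4, MAP2K1 at 443 ± 28.5, MAPK3 at 355 ± 96.1, HRAS at 314 ± 40.4, ARAF at 167 ± 39.6 and BRAF at 122 ± 24.9. Among neighbours in this order, the library ranges of NRAS and MAP2K1 and those of HRAS and ARAF did not overlap, and the others did. In DMSO footprints the order was NRAS at 933 ± 144, MAP2K1 at 608 ± 27.2, MAP2K2 at 324 ± 9.41, MAPK3 at 266 ± 10.4, HRAS at 180 ± 56.1, BRAF at 105 ± 8.11 and ARAF at 90.9 ± 5.69. Here BRAF and ARAF were the only neighbours whose ranges overlapped.

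Under trametinib the order in footprints differed in one place. MAPK3 reached 417 ± 50.9 per kilobase and MAP2K2 388 ± 13.9, with ranges of 360 to 458 and 371 to 397. These neighbours, apart in DMSO, thus overlapped. HRAS and BRAF, also apart in DMSO, overlapped too, at 126 to 143 and 108 to 129, while BRAF and ARAF no longer did. In trametinib input MAP2K2 stood highest at 948 ± 19.6 and BRAF lowest at 131 ± 13.9. The kinases at the top of the cascade, ARAF and BRAF, had the lowest means of the 7 genes per kilobase in both assays and under both treatments.

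The genes most like each member were sought by Pearson's r over the 12 libraries, after each assay had been centred, among 7662 genes. This is a description that the treatment and the replicate differences share in. The closest were DAZAP2 for MAPK3 (r = 0.975), ASMTL for MAP2K2 (r = 0.965), TMED5 for MAP2K1 (r = 0.954), OTUD4 for BRAF (r = 0.952), METAP1 for NRAS (r = 0.950), CDK2AP1 for ARAF (r = 0.920) and EIF4ENIF1 for HRAS (r = 0.882). The next closest were ATP2A3 for MAPK3 (r = 0.965), FLII for MAP2K2, GLRX2 for MAP2K1, CCDC90B for BRAF, URI1 for NRAS and MEA1 for HRAS (r = 0.850).

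Around the 7 genes, 93 other genes of RAS and MAPK signaling were listed, of which 81 were tested. In input, 9 were called higher and 11 lower, and in footprints 19 higher and 13 lower (edgeR), against 15.4%, 16.8%, 23.9% and 25.6% of all genes. Scaling by library totals gave 33 higher and 8 lower in footprints. For ribosome density 1 was called higher and 0 lower (DESeq2), against 0.328% and 1.41%. The called gene was SOS1, an exchange factor that loads RAS with GTP. SOS1 footprints were 215 ± 11.6 in DMSO and 371 ± 44.9 in trametinib, a rise of 0.79 (SE 0.12, edgeR adjusted p = 7.34e-04), while its input was 343 ± 48.5 and 295 ± 92.6 (change -0.21, edgeR adjusted p = 0.509). The ribosome density change of SOS1 was 1.01 (SE 0.29, DESeq2 adjusted p = 0.0373), and it was called in 5 of 10 alternatives with all libraries and in 3 of 12 fits that each left out a library.

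RAS GTPase activating proteins, which return RAS to its inactive state, had 4 genes higher and 1 lower in footprints of 8 tested. Over all genes, 23.9% were called higher and 25.6% lower in footprints. DAB2IP rose by 1.03 in input and 0.63 in footprints (edgeR adjusted p = 0.00104 and 0.00445). RASA2 fell by 1.09 and 0.85 (edgeR adjusted p = 0.00268 and 0.00117). Of 8 tested genes for the lipid modification and transport of RAS, 3 were lower in input and 1 in footprints. Of all genes, 16.8% and 25.6% were called lower in these assays. PDE6D, which carries lipid-modified RAS through the cytosol, fell by 1.02 in input (edgeR adjusted p = 0.0193), and its footprint change was -0.03. This input call of PDE6D rested on at most 49 reads per library in DMSO and 20 in trametinib. It was lost in 3 of the 6 fits that each left out a library.

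Among 22 scaffolds and regulators of RAF and MEK, 5 were higher and 4 lower in footprints, against 23.9% and 25.6% of all genes. SFN, a 14-3-3 protein, rose by 0.94 in footprints and 1.07 in input (edgeR adjusted p = 1.67e-04 and 0.00105). HSP90AA1, a chaperone on which RAF kinases depend, fell by 1.03 and 0.88 (edgeR adjusted p = 0.00636 and 0.00697). Of 11 RAS-related GTPases 3 were higher and 2 lower in footprints, against the same shares of all genes. MRAS footprints were 22.6 ± 2.44 in DMSO and 82.2 ± 10.5 in trametinib, a change of 1.88 (SE 0.17, edgeR adjusted p = 4.80e-05). The input change of MRAS was 0.95 (edgeR adjusted p = 0.0387), with at most 18 reads per input library in DMSO and 36 in trametinib. This call was lost in 4 of the 6 fits that each left out a library and with the correction for GC3.

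In the parallel MAPK cascades, 6 of 29 tested genes were higher and 5 lower in footprints, against 23.9% and 25.6% of all genes. MAP3K12, an upstream kinase of the JNK branch, rose by 1.16 in input and 0.74 in footprints (edgeR adjusted p = 0.00193 and 0.00368). MAPK6, the atypical kinase ERK3, had 531 ± 118 normalized footprint counts in DMSO and 228 ± 16.3 in trametinib, a change of -1.23 (SE 0.16, edgeR adjusted p = 3.85e-04). The input of MAPK6 fell by 0.54 (edgeR adjusted p = 0.0253), a call kept in 1 of the 6 fits that each left out a library. Of the 3 tested exchange factors, 1 was higher in each of input and footprints, against 15.4% and 23.9% of all genes. The median footprint changes of these lists lay between -0.05, for the lipid modification and transport of RAS, and 0.73, for the exchange factors, against -0.01 for all genes.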

How the data were processed

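HCT116 input and footprint libraries were compared between trametinib and DMSO. According to the methods of the study, the authors removed adapters, discarded rRNA and tRNA reads with Bowtie 1.2.2, mapped the rest to Gencode basic transcripts and counted, per symbol, reads in open reading frames of that symbol alone. In the table deposited by the authors are raw counts, whole numbers, for each library, and a normalized signal, each count over the size factor of its library. Recomputed size factors matched the deposited ones in 12 of 12 libraries. The table also holds the authors' fold changes and adjusted p-values and flags for gene classes, which were not used. No per-library column was left unused.

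Input and footprint changes were tested within the 6 libraries of each assay by the edgeR 4.0.16 quasi-likelihood test with TMM scaling, and ribosome density by the DESeq2 1.42.0 likelihood ratio test of the interaction of assay and treatment over 12 libraries, in R 4.3.3, with Benjamini-Hochberg adjustment. Genes needed 10 or more counts in 3 or more input libraries. Intervals are 95% intervals of the model. The scripts were tested on simulated data. No interval covers error beyond the spread between these libraries. The alternatives were other scalings, filters and tests (limma 3.58.1, DESeq2), a replicate block, each library left out and, added after the data had been seen, a GC3 correction by a lowess curve for each library. Lengths, positions and GC3 came from GENCODE v44 (GRCh38). Named genes were the 7 members, the genes of the treatment check, other listed genes called with a log2 change of at least 1 and a mean of at least 50 normalized counts (at most 4 per list), genes called for ribosome density, and the 2 genes most like each member. One of these genes and the sequences of the RAS pair are not reported here. Members and lists were chosen with earlier results of these data known.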

Additional observations from a re-analysis of the deposited data

Results flagged for a closer look

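The effect of trametinib on SOS1 differed between the assays by the test of the interaction itself, with a ribosome density change of 1.01 (SE 0.29, DESeq2 adjusted p = 0.0373). SOS1 footprints were 206 to 228 normalized counts in DMSO and 341 to 423 in trametinib, without overlap, whereas its input ranged from 290 to 384 and from 188 to 354. The call was lost under 5 of the 10 alternatives with all libraries. Across the 10 alternatives, changes were 0.98 to 1.18, with DESeq2, edgeR or limma adjusted p-values of up to 0.183. Of the 12 fits that each left out a library, 3 called SOS1, with changes of 0.76 to 1.16 over the 12. SOS1 was the 1 gene called of the 81 listed genes tested, against 1.73% of all genes called in either direction.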

How the results depend on the processing

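The number of members called higher in footprints was 2, and it was 1, MAPK3, with median-of-ratios size factors, the filter on libraries of either kind, no filter, the DESeq2 Wald test, limma-trend, the replicate block, the GC3 correction and the replicate block with GC3 correction. It was 3 with library totals, which added BRAF. Leaving out each library gave 1 to 2 higher and 0 to 1 lower. With the replicate block and GC3 correction 1 member, HRAS, was called lower (change -0.52, edgeR adjusted p = 0.0488). In input the counts were 0 and 0, and became 1 higher and 1 lower in the fit of all 12 libraries and 0 to 2 higher when a library was left out. Under library totals the footprint changes of NRAS and MAP2K1 turned to 0.034 and 0.087 and the ribosome density changes of HRAS and MAP2K2 to 0.016 and 0.093. This scaling raised the median of all genes by 0.18 in both comparisons. The footprint change of ARAF turned to -0.030 with the GC3 correction and to -0.028 with the block added to it. With a library left out, input changes ranged from -0.32 to 0.0098 for ARAF, from -0.037 to 0.25 for BRAF and from -0.36 to 0.023 for SOS1, and the footprint change of ARAF from -4.58e-05 to 0.13. Ribosome density changes ranged from -0.39 to 0.13 for HRAS, 0.077 to 0.40 for ARAF, -0.033 to 0.18 for NRAS, -0.057 to 0.23 for BRAF and -0.17 to 0.014 for MAP2K2. On the log2 scale, the ratio changes ranged from -0.11 to 0.31 for NRAS over HRAS in input, and for BRAF over ARAF between -0.048 and 0.55 in input and between -0.0077 and 0.25 in footprints. The cause of these differences was not tested.

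The replicate numbers are not known to pair samples across treatments. Between libraries of equal number, the deviations from the group means had Pearson's r of 0.068, 0.048 and 0.33 in input and of 0.12, 0.13 and 0.29 in footprints, over 7669 genes. The block ended the footprint call of MAP2K2 (change 0.26, edgeR adjusted p = 0.0693) and changed no other call of a member. Of the other listed genes, 15 instead of 9 were higher in input with the block. Each member had 40 to 476 reads per input library. Input replicates of one group differed by more than counting error (chi-square per gene 3.51 to 14.7). Footprint replicates, which were deeper, did so too, with 24.2 to 117 in DMSO and 5.65 to 10.5 in trametinib. The part of depth in the width of the intervals was not tested.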
